A study of Homo sapiens with 12 samples.

Results

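The IGF-binding protein genes are IGFBP1 to IGFBP7, which encode secreted proteins that bind insulin-like growth factors. They were chosen by name, with earlier results of these data known, and all 7 had a row among the 23228 genes of the count tables. Poly(A) RNA of MDA-MB-468, an established basal-type, triple-negative breast cancer cell line, was measured in 4 groups of 3 libraries, A, B and C. The combination group received 5 µM ipatasertib, an inhibitor of the kinase AKT, together with 5 µM tazemetostat, an inhibitor of the histone methyltransferase EZH2. The ipatasertib group received 5 µM ipatasertib without tazemetostat, the tazemetostat group received 5 µM tazemetostat without ipatasertib, and the DMSO group received vehicle. Exposure to tazemetostat or vehicle began on day -5 in all groups. Ipatasertib or its vehicle followed on day 0, when the medium held 2% serum, and cells were collected 24 hours later. All groups are the same line in the same low serum. The labels do not say whether A, B and C were separate cultures, so each p-value measures the spread between these libraries, which may be technical.

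IGF-binding proteins hold IGF1 and IGF2 outside the cell, which limits access to the IGF1 receptor, and proteases such as PAPPA cleave them and release the growth factor. Signalling from that receptor runs through IRS adaptors and PI3K to AKT, which keeps FOXO transcription factors out of the nucleus. EZH2 is the catalytic subunit of Polycomb repressive complex 2, which methylates histone H3 at silenced genes.

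Counts in genes ran between 12981622 and 28746965 per library, with the combination libraries the shallowest (12981622 to 17948209) and the DMSO libraries the deepest (22682755 to 28746965). A count of 3 corresponded to 0.106 to 0.228 CPM, the read count scaled to a common library size. The share of counted reads outside any gene was 24.34% to 26.22% in combination, 22.26% to 24.27% in ipatasertib, 19.79% to 22.97% in tazemetostat and 18.25% to 21% in DMSO libraries, and its part in the results was not tested. Library A stood apart in every group, since a chi-square statistic over genes, divided by its degrees of freedom, was 2.35 to 3.47 for B with C and 4.18 to 14.7 for pairs with A. All 8 epithelial markers looked up for a basal-type line were above 1 CPM in every library, but their levels differed between groups. KRT5 averaged 443, 1170, 1020 and 1720 CPM in combination, ipatasertib, tazemetostat and DMSO libraries, and KRT14 averaged 84.5, 206, 114 and 220 CPM. EGFR went the other way, at 2240, 2260, 1250 and 1060 CPM. The part of these differences in the results was not tested. Of 3 receptors low in triple-negative lines, ERBB2 averaged 46.5, 48.3, 52.6 and 41.7 CPM in combination, ipatasertib, tazemetostat and DMSO libraries, ESR1 averaged 1.45, 1.56, 1.82 and 1.71 CPM, and PGR had 4 reads over the tazemetostat libraries and none elsewhere. The 8 fibroblast markers summed to 9.48 to 11.5 CPM in combination, 5.23 to 5.53 CPM in ipatasertib, 15.9 to 19.5 CPM in tazemetostat and 9.72 to 11.7 CPM in DMSO libraries, nearly all of it COL1A1 in ipatasertib and DMSO libraries. Of these markers COL1A2, DCN, LUM, POSTN and THY1 had no read in DMSO libraries, LUM averaged 1.84 CPM in combination and 2.3 CPM in tazemetostat libraries, and the part of this list in the results was not tested. The 6 endothelial markers summed to 27.4 to 30.5 CPM in combination, 32.5 to 34.1 CPM in ipatasertib, 22.1 to 26.9 CPM in tazemetostat and 24.9 to 25.9 CPM in DMSO libraries, led by KDR, with CDH5 at 3.82, 0.924, 0.472 and 0.15 CPM. The 5 leukocyte markers summed to 58.5 to 68.2 CPM, 75.1 to 96.8 CPM, 53 to 60.9 CPM and 77.2 to 82.9 CPM in the same order, nearly all of it CD14, and PTPRC averaged 0.601, 0.0975, 0.054 and 0.0478 CPM. The part of these lists in the results was not tested either.

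IGFBP2, IGFBP3, IGFBP4, IGFBP5, IGFBP6 and IGFBP7 passed the filter on low counts and were tested among 14571 genes, while IGFBP1 did not pass it. The filter's cutoff was 0.441 CPM on library totals, and IGFBP7 met it in combination and ipatasertib libraries but in 0 tazemetostat and 0 DMSO libraries, so its calls against those groups below are given as descriptions and support no count. Members were called with edgeR's quasi-likelihood test at a Benjamini-Hochberg adjusted p under 0.05. Between combination and DMSO libraries, IGFBP3 and IGFBP6 were higher and IGFBP2, IGFBP4 and IGFBP5 were lower. Of all tested genes 64.4% passed in that comparison (34.4% higher, 30% lower). IGFBP7 was called higher there too, as a description only. Between ipatasertib and DMSO, IGFBP3 was higher and IGFBP2 and IGFBP5 were lower, where 47.1% of all tested genes passed (24% higher, 23.1% lower). Here too the higher call of IGFBP7 is only a description. Between tazemetostat and DMSO, 1 member was higher (IGFBP6) and 2 were lower (IGFBP4, IGFBP5), where 47.2% of all tested genes passed (25.9% higher, 21.3% lower). Of all genes passing in that comparison 54.9% were higher, and 67.9% were when library totals replaced the TMM factors. With backgrounds this high and 6 genes, nothing about the family is read from these calls. The comparisons against DMSO share the same 3 DMSO libraries.

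**Figure D1:**
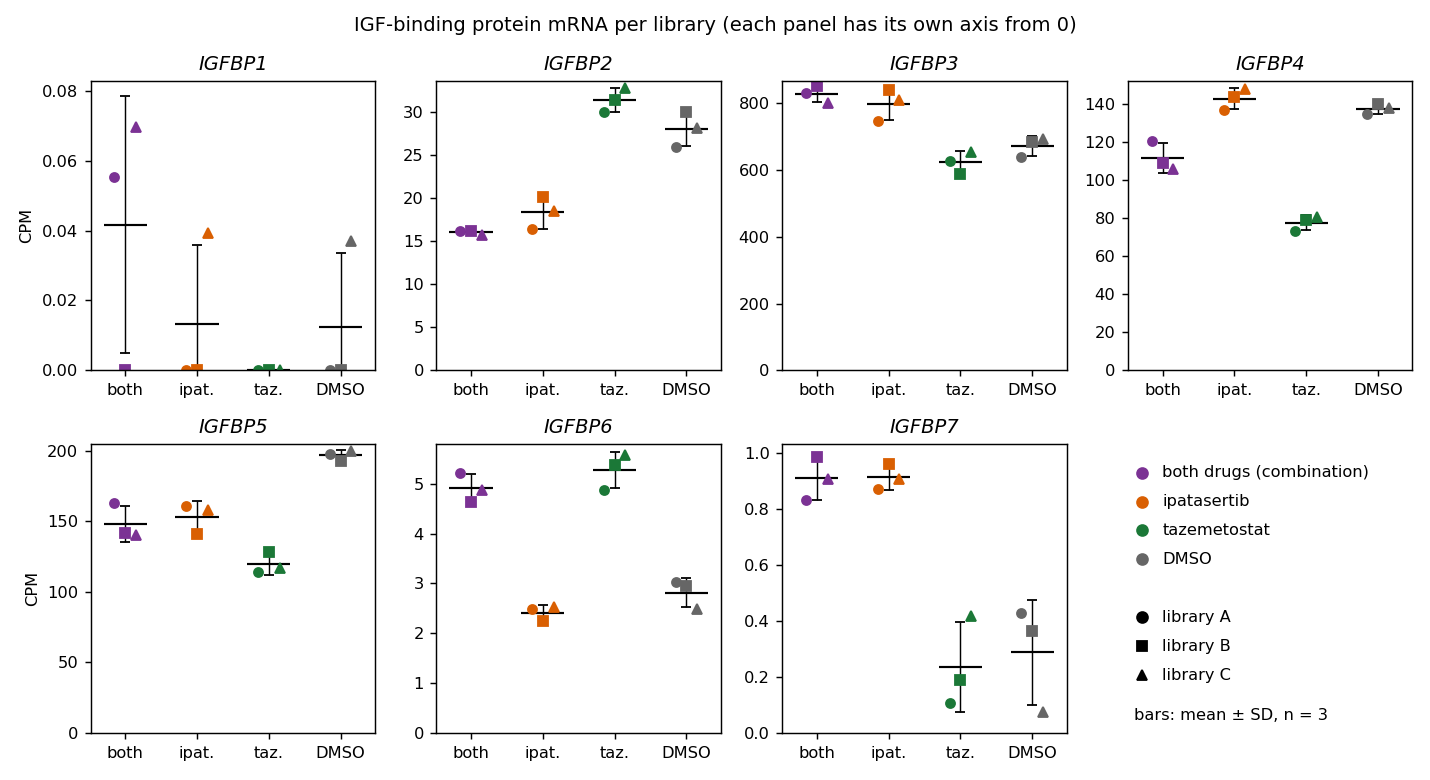
CPM of each IGF-binding protein gene in each library of the combination, ipatasertib, tazemetostat and DMSO groups, one panel a gene with its own axis from 0; bars are the mean ± SD of 3 libraries. IGFBP2 is low in both ipatasertib-containing groups, IGFBP6 is high in both tazemetostat-containing groups, and IGFBP7 is at or under 0.986 CPM in every library.

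IGFBP3 and IGFBP5 are the binding proteins that can join IGF and the acid-labile subunit, encoded by IGFALS, in a ternary complex. IGFBP3, the main IGF carrier of serum, was the most abundant member. It had 832, 852 and 802 CPM in combination, 746, 841 and 811 CPM in ipatasertib, 627, 588 and 655 CPM in tazemetostat and 638, 685 and 692 CPM in DMSO libraries A, B and C. Every library with ipatasertib, alone or combined, lay above every library without it, whereas tazemetostat and DMSO libraries overlapped, as did combination and ipatasertib libraries. IGFBP3 rose by 0.25 on the log2 scale with ipatasertib (SE 0.065, edgeR adjusted p = 0.00304) and by 0.30 with the combination (SE 0.065, edgeR adjusted p = 0.000332), both against DMSO. Between combination and ipatasertib it was 0.05, with a 95% interval of -0.0825 to 0.187. The difference between tazemetostat and DMSO was -0.11 (SE 0.065, edgeR adjusted p = 0.18), and without library A of every group, an alternative chosen after seeing the data, it was -0.15 with an adjusted p of 0.0138. Lower RNA per cell and fewer cells of one kind cannot be told apart in bulk RNA.

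IGFBP5, which also binds extracellular matrix and is a known marker of mammary involution, had 163, 142 and 140 CPM in combination, 161, 141 and 158 CPM in ipatasertib, 114, 128 and 117 CPM in tazemetostat and 198, 193 and 200 CPM in DMSO libraries. Every DMSO library lay above every treated library, and every tazemetostat library lay below every other library. Combination and ipatasertib libraries overlapped. IGFBP5 fell by 0.36 on the log2 scale with ipatasertib (SE 0.073, edgeR adjusted p = 0.000304), by 0.72 with tazemetostat (SE 0.073, edgeR adjusted p = 4.64e-08) and by 0.41 with the combination (SE 0.073, edgeR adjusted p = 4.71e-05). Between combination and tazemetostat it was higher by 0.31 (SE 0.074, edgeR adjusted p = 0.00152), and 0.20 without library A of every group. Between combination and ipatasertib the difference was -0.05, with a 95% interval of -0.198 to 0.107.

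IGFBP4, an inhibitor of IGF action that PAPPA cleaves, had 121, 109 and 106 CPM in combination, 137, 144 and 148 CPM in ipatasertib, 73.3, 79.1 and 80.9 CPM in tazemetostat and 135, 140 and 138 CPM in DMSO libraries. Tazemetostat libraries were the lowest, combination libraries were next, and ipatasertib and DMSO libraries overlapped above them. IGFBP4 fell by 0.82 on the log2 scale with tazemetostat (SE 0.067, edgeR adjusted p = 1.38e-09) and by 0.30 with the combination (SE 0.067, edgeR adjusted p = 0.000504). With ipatasertib the difference from DMSO was 0.05, with a 95% interval of -0.083 to 0.191 (edgeR adjusted p = 0.53).

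IGFBP2, a binding protein that is abundant in serum and can also bind integrins, had 16.2, 16.2 and 15.7 CPM in combination, 16.4, 20.2 and 18.5 CPM in ipatasertib, 30, 31.4 and 32.8 CPM in tazemetostat and 26, 30 and 28.2 CPM in DMSO libraries. The libraries with ipatasertib, alone or combined, were all below those without it. IGFBP2 fell by 0.61 on the log2 scale with ipatasertib (SE 0.087, edgeR adjusted p = 6.33e-06), by 0.81 with the combination (SE 0.092, edgeR adjusted p = 9.76e-08) and by 0.97 in combination against tazemetostat libraries (SE 0.092, edgeR adjusted p = 1.75e-08). Combination libraries lay below ipatasertib libraries with no overlap, by -0.20 (SE 0.095, edgeR adjusted p = 0.097). That difference was -0.29 with an adjusted p of 0.0231 without ipatasertib library A. With tazemetostat the difference from DMSO was 0.16 (SE 0.083, edgeR adjusted p = 0.112), and with library totals in place of TMM factors it was 0.24 with an adjusted p of 0.0239.

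IGFBP6, which prefers IGF2 over IGF1, had 5.21, 4.63 and 4.88 CPM in combination, 2.48, 2.24 and 2.52 CPM in ipatasertib, 4.87, 5.38 and 5.57 CPM in tazemetostat and 3.02, 2.95 and 2.48 CPM in DMSO libraries. The libraries with tazemetostat, alone or combined, were all above those without it, and both pairs of groups that shared tazemetostat status overlapped. IGFBP6 rose by 0.91 on the log2 scale with tazemetostat (SE 0.13, edgeR adjusted p = 8.27e-06), by 0.81 with the combination (SE 0.14, edgeR adjusted p = 4.41e-05) and by 1.02 in combination against ipatasertib libraries (SE 0.15, edgeR adjusted p = 9.44e-06). With ipatasertib alone the difference was -0.21, with a 95% interval of -0.528 to 0.104, and between combination and tazemetostat it was -0.10, with an interval of -0.382 to 0.174.

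IGFBP7, a relative with low affinity for IGFs, was near the detection limit. It had 15, 13 and 13 counts in combination (0.831, 0.986 and 0.906 CPM), 20, 18 and 23 counts in ipatasertib (0.871, 0.961 and 0.907 CPM), 2, 5 and 10 counts in tazemetostat (0.105, 0.187 and 0.416 CPM) and 12, 8 and 2 counts in DMSO libraries (0.426, 0.363 and 0.0741 CPM). Every library with ipatasertib was above every library without it, and IGFBP7 was tested only because of those higher groups. IGFBP7 rose by 1.65 on the log2 scale with ipatasertib (SE 0.4, edgeR adjusted p = 0.00174), by 1.64 with the combination (SE 0.43, edgeR adjusted p = 0.00229) and by 1.87 in combination against tazemetostat libraries (SE 0.46, edgeR adjusted p = 0.00204), or by 2.51 without tazemetostat library C. Between tazemetostat and DMSO the difference was -0.23, with a 95% interval of -1.32 to 0.869, and between combination and ipatasertib it was -0.02, with an interval of -0.753 to 0.722. RefSeq annotates the antisense genes IGFBP7-AS1 and IGFBP-AS1, the second at IGFBP5. Sense and antisense reads cannot be told apart, because the sources used here do not state whether counting used strand.

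IGFBP1, a liver protein that insulin represses and FOXO factors induce, had a total of 2 counts in combination, 1 in ipatasertib, 0 in tazemetostat and 1 in DMSO libraries. These are 0.0439 CPM in combination (exact Poisson 95% interval 0.00531 to 0.158), 0.0149 CPM in ipatasertib (0.000378 to 0.0831) and 0.013 CPM in DMSO (0.000328 to 0.0722). In tazemetostat libraries, a count of 0 allows up to 0.0429 CPM. No difference between groups was detectable at this depth, and intervals and limits cover counting error only.

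**Figure D2:**
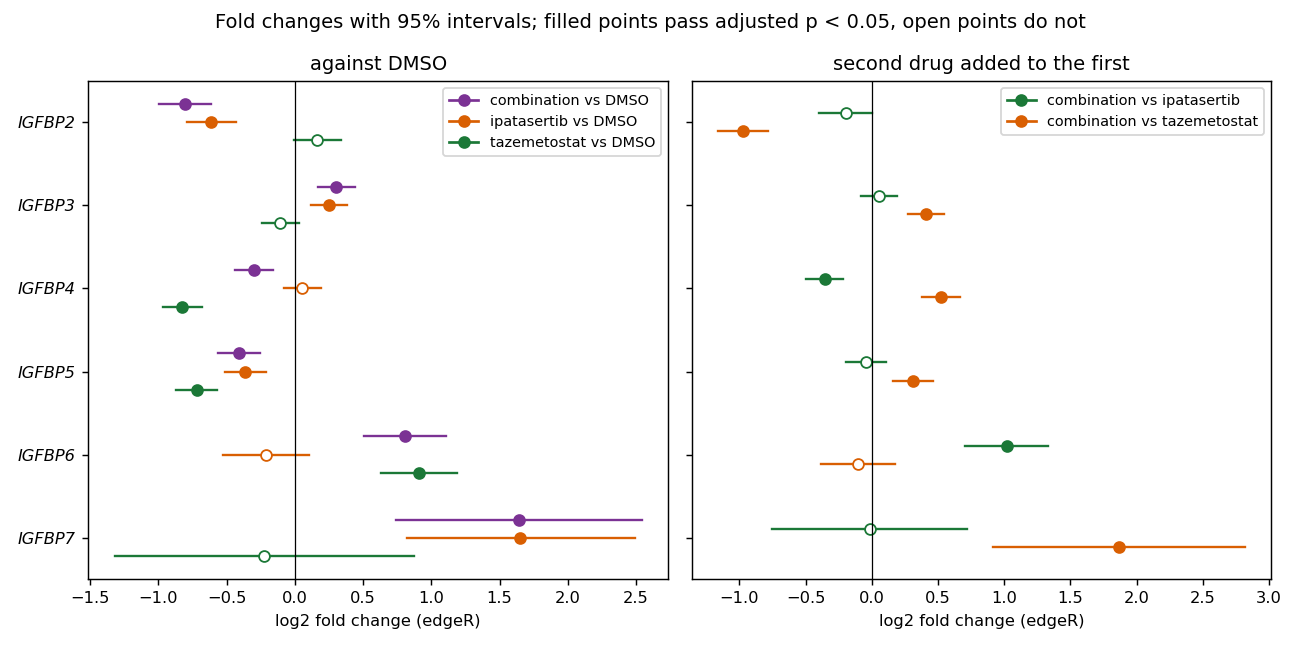
log2 fold changes of the 6 tested members with 95% intervals from edgeR, against DMSO on the left and for the second drug added to the first on the right; filled points pass the adjusted p threshold of 0.05. IGFBP4 and IGFBP6 pass with tazemetostat in both panels, lower and higher, IGFBP5 passes with it against DMSO only (-0.05 in combination against ipatasertib, not passed), and IGFBP2 is lower with ipatasertib in both panels.

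Between combination and ipatasertib libraries, 1 member was higher (IGFBP6) and 1 lower (IGFBP4, by -0.35, edgeR adjusted p = 0.000181), where 44.9% of tested genes passed (24.2% higher, 20.7% lower). Between combination and tazemetostat libraries, IGFBP3 was higher by 0.41, IGFBP4 by 0.52 and IGFBP5 by 0.31, and IGFBP2 was lower. Of tested genes 46.3% passed in that comparison (23.2% higher, 23.1% lower). IGFBP7 was called higher by 1.87, as a description only. IGFBP6 was higher and IGFBP4 lower with tazemetostat in the presence and in the absence of ipatasertib. IGFBP2 was lower and IGFBP3 was higher with ipatasertib in the presence and in the absence of tazemetostat.

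The interaction compares the measured combination with the sum of the single-drug changes on the log2 scale. IGFBP4 and IGFBP5 passed, 2 of 6 tested members, where 12% of tested genes passed (5.96% higher, 6.01% lower). That background was 1744 genes, 674 to 3681 when 1 library was left out and 5452 without library A of every group, so nothing is read from 2 of 6. For IGFBP4 the sum of the single changes was -0.77 and the combination was -0.30, a difference of 0.47 (95% interval 0.27 to 0.67, edgeR adjusted p = 0.00431). For IGFBP5 the sum was -1.08 and the combination was -0.41, a difference of 0.67 (95% interval 0.46 to 0.89, edgeR adjusted p = 0.000627). Both genes were thus less reduced by the combination than the sum of the single changes. IGFBP2 had a sum of -0.45 and a combination change of -0.81 (interaction -0.36, edgeR adjusted p = 0.0638). The interaction was 0.16 for IGFBP3, 0.11 for IGFBP6 and 0.21 for IGFBP7, with adjusted p-values of 0.254, 0.761 and 0.861 from edgeR. Of all genes passing in the interaction 49.8% were higher, and 33.6% were with library totals in place of TMM factors.

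**Figure D3:**
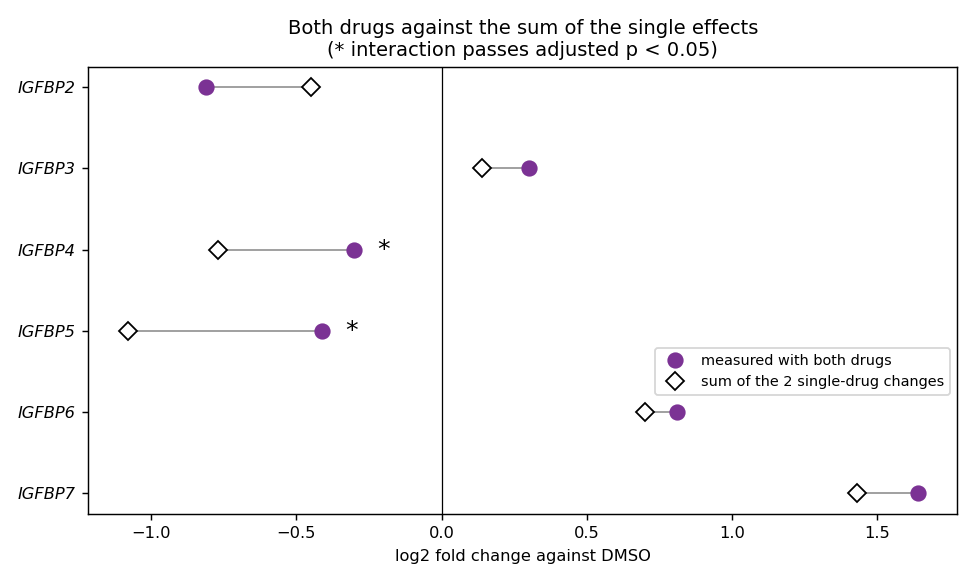
Measured change with both drugs (filled circles) beside the sum of the single-drug changes (open diamonds) for the 6 tested members, on the log2 scale against DMSO; asterisks mark an interaction that passes an adjusted p of 0.05. IGFBP4 and IGFBP5 lie at -0.30 and -0.41 with both drugs, above their sums of -0.77 and -1.08.

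Promoter sequence is shown for the members that moved most with 1 drug at levels above the count filter in every group: IGFBP4 and IGFBP5, which fell with tazemetostat, IGFBP6, which rose with it, and IGFBP2, which fell with ipatasertib. The windows are from RefSeq (GRCh38.p14), are written 5′ to 3′ on the gene's strand, and show the 250 bases before the annotated start; the counts were made on another build. The capitals mark a match to GTAAACA, the FOXO consensus, and IGFBP6 has the only match, its first base at position -186 from the window's annotated start, which lies 222 bases from the principal GENCODE start, against 11 to 25 bases for the other windows shown. Neither GTAAACA nor CAAAACA, the core of the insulin response element, was found elsewhere on either strand of the 5 members' windows. Only the 250 bases before the start were searched for the members. Matches in 3.42% and 4.92% of 35116 windows were counted over the full 300 bases, so these shares cover a longer stretch. A match is a description of the letters and not evidence of a binding site. The coordinates are chr17:40443200-40443449 on the plus strand for IGFBP4, chr2:216695550-216695799 on the minus strand for IGFBP5, chr12:53097417-53097666 on the plus strand for IGFBP6 and chr2:216633170-216633419 on the plus strand for IGFBP2, whose window is the nearest of 3 to the principal transcript start.
IGFBP4: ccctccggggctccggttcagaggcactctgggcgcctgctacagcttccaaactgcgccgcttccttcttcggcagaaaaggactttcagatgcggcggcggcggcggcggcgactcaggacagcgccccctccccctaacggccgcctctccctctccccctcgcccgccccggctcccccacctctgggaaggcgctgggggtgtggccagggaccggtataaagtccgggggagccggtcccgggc
IGFBP5: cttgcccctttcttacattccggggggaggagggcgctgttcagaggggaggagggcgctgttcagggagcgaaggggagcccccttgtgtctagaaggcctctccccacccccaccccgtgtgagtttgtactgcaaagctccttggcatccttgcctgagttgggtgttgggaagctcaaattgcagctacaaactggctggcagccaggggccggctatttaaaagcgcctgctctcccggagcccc
IGFBP6: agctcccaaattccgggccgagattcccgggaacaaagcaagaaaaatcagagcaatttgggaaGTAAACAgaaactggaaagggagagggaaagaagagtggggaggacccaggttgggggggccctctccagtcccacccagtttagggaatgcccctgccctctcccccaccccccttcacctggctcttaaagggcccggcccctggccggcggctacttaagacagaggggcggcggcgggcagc
IGFBP2: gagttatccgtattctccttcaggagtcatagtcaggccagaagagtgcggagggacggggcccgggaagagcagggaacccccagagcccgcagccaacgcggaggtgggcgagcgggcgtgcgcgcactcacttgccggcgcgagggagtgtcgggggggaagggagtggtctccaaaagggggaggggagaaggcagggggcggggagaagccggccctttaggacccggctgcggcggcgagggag
IGFBP3, whose window is not printed, had a GC content of 74.7% and a CpG ratio of 0.867; IGFBP1 and IGFBP7 are not shown. In the 300-base windows, GC content was 74% for IGFBP4, 59% for IGFBP5, 61.7% for IGFBP6 and 70% for IGFBP2, with a median of 58.7% over all windows. The CpG observed over expected was 0.746, 0.347, 0.422 and 0.825 in the same order, with a median of 0.579 over all windows. IGFBP4 and IGFBP5, both lower with tazemetostat, thus lie on opposite sides of that median. IGFBP2 and IGFBP5 are neighbouring genes on chromosome 2, and IGFBP1 and IGFBP3 are neighbours on chromosome 7. The neighbours IGFBP2 and IGFBP5 both fell with ipatasertib but differed with tazemetostat (0.16, not passed, and -0.72).

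Levels of different genes were compared per length, as CPM per kilobase of the principal GENCODE transcript. IGFBP3 had 366 ± 11.1 in combination, 353 ± 21.5 in ipatasertib, 276 ± 14.9 in tazemetostat and 297 ± 13 in DMSO libraries (SD, n = 3 each). It made up 80.1% ± 1.01, 77% ± 0.874, 77.2% ± 1.31 and 71.8% ± 0.605 of the family in those groups, and its DMSO share did not overlap that of any treated group. IGFBP4 followed IGFBP3, at 50.9 ± 3.61, 65 ± 2.53, 35.3 ± 1.81 and 62.6 ± 1.14 CPM per kilobase in combination, ipatasertib, tazemetostat and DMSO libraries. IGFBP5 came next in the combination, ipatasertib and DMSO groups at 23.9, 24.7 and 31.7 CPM per kilobase, while in tazemetostat libraries the mean of IGFBP2 (21.8 ± 0.973) was above that of IGFBP5 (19.3 ± 1.19). Summed over the 7 genes without length scaling, the family had 1111 ± 36.2 CPM in combination, 1117 ± 46.6 CPM in ipatasertib, 857.6 ± 30.9 CPM in tazemetostat and 1038 ± 33 CPM in DMSO libraries, and the tazemetostat libraries (832.2 to 892 CPM) lay below all others.

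**Figure D4:**
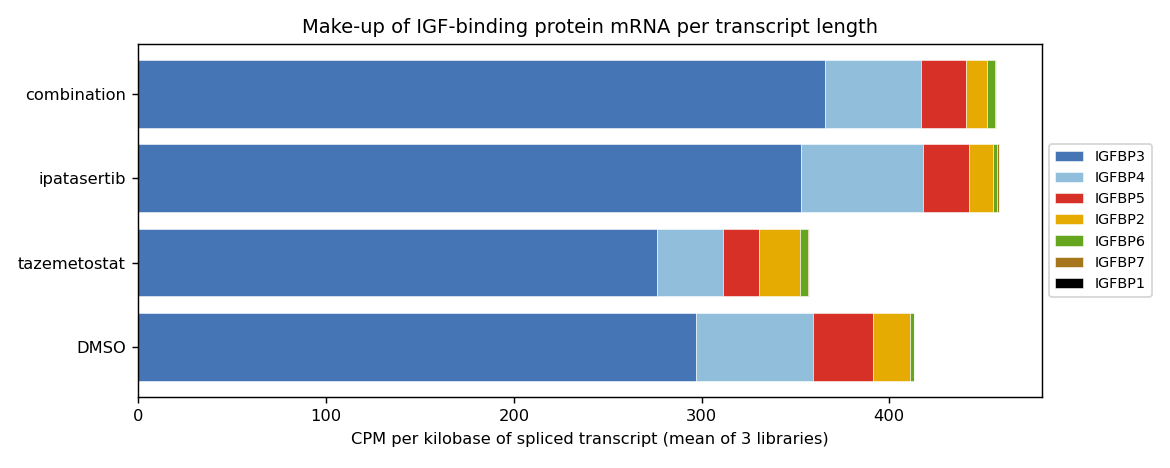
CPM per kilobase of spliced transcript for each member, stacked by group with the combination at the top and DMSO at the bottom; each segment is the mean of 3 libraries. IGFBP3 forms the largest segment in every group, 80.1% of the family in combination and 71.8% in DMSO libraries.

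Other genes of the IGF system were described from lists chosen with earlier results of these data known. Among the 15 ligands, receptors and binding partners, 10 were tested, and 9 were higher with the combination, 6 with ipatasertib and 6 with tazemetostat, and none lower, in each case against DMSO. The list's median log2 change was 1.02, 0.60 and 0.43 in those comparisons, where the median of all tested genes was 0.03, 0.00 and 0.01 and the share of all tested genes called higher was 34.4%, 24% and 25.9%. LRP2, counted as higher with the combination and with tazemetostat, met the filter in 0 DMSO and 0 ipatasertib libraries. With 10 genes, LRP2 among them, nothing about the list is read from these counts and medians. ADAM12 and ESM1 in the next lists also met the filter in 0 DMSO libraries. IGF1R, the receptor, averaged 118 ± 1.51 CPM in combination, 88.3 ± 5.01 in ipatasertib, 54.9 ± 3.84 in tazemetostat and 37.2 ± 0.392 in DMSO libraries (SD, n = 3), and IRS2, its adaptor, averaged 134 ± 11.8, 84 ± 2.43, 28.4 ± 1.12 and 28.3 ± 1.58 CPM. Against DMSO, IGF1R rose by 1.66 with the combination (edgeR adjusted p = 6.87e-15), by 1.25 with ipatasertib (5.43e-12) and by 0.56 with tazemetostat (9.42e-07), whereas IRS2 differed by 0.00 with tazemetostat. IGF2 had no read in any library, and IGF1 had 13 counts over the combination group, 2 over ipatasertib, 2 over tazemetostat and 2 over DMSO libraries.

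Among the 15 proteases and their inhibitors, 13 were tested; against DMSO, 9 were higher and 1 lower with the combination, 3 and 2 with ipatasertib, and 8 and 1 with tazemetostat (median log2 changes 0.56, 0.17 and 0.32, against 0.03, 0.00 and 0.01 over all tested genes). Of all tested genes 64.4%, 47.1% and 47.2% were called in either direction, so the list's 5 of 13 with ipatasertib was not above that share. With 13 genes, ADAM12 among them, nothing about the list is read from any of these counts. PAPPA, the protease that cleaves IGFBP4, had 8.37, 7.66 and 8.08 CPM in combination, 3.44, 3.15 and 2.44 CPM in ipatasertib, 3.83, 3.36 and 3.83 CPM in tazemetostat and 0.993, 0.999 and 0.815 CPM in DMSO libraries. STC1, an inhibitor of PAPPA, had 18.6, 16.5 and 15.3 CPM in combination, 39.1, 32.1 and 33.2 CPM in ipatasertib, 58.4, 56.8 and 55.8 CPM in tazemetostat and 73.6, 74.9 and 76.7 CPM in DMSO libraries. No PAPPA or STC1 library of any treated group overlapped DMSO. PAPPA rose by 3.10, 1.68 and 1.96 on the log2 scale with the combination, ipatasertib and tazemetostat (edgeR adjusted p = 6.2e-13, 3.22e-07 and 1.18e-08), and STC1 fell by 2.16, 1.11 and 0.40 (edgeR adjusted p = 4.98e-15, 4.02e-10 and 0.000225). PRG2, also in the list, averaged 0.587, 0.852, 0.559 and 0.65 CPM in combination, ipatasertib, tazemetostat and DMSO libraries. It was not called against DMSO with the combination, ipatasertib or tazemetostat (-0.15, 0.39 and -0.16). STC2, another PAPPA inhibitor in the list, was called lower with ipatasertib, as STC1 was, but not with the combination or tazemetostat. STC2 averaged 39.2 ± 3.5, 31.6 ± 3.72, 34.9 ± 3.08 and 39 ± 1.44 CPM in combination, ipatasertib, tazemetostat and DMSO libraries. Its differences from DMSO with the combination, ipatasertib and tazemetostat were 0.01, -0.30 and -0.16 (edgeR adjusted p = 0.927, 0.0089 and 0.154).

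Of 12 other genes with an IGFBP domain, 7 were tested; against DMSO, 5 were higher and 0 lower with the combination, 3 and 0 with ipatasertib, and 5 and 1 with tazemetostat (median log2 changes 1.08, 0.20 and 0.70, against 0.03, 0.00 and 0.01 over all tested genes). With 7 genes and 64.4%, 47.1% and 47.2% of all tested genes called, nothing is read from these counts. NOV, a matricellular CCN protein, averaged 91.7 ± 3.01 CPM in combination, 10.4 ± 0.295 CPM in ipatasertib, 39.4 ± 4.4 CPM in tazemetostat and 2.79 ± 0.393 CPM in DMSO libraries. It rose by 5.04, 1.90 and 3.82 on the log2 scale against DMSO (edgeR adjusted p = 1.43e-19, 9e-11 and 5.29e-17).

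**Figure D5:**
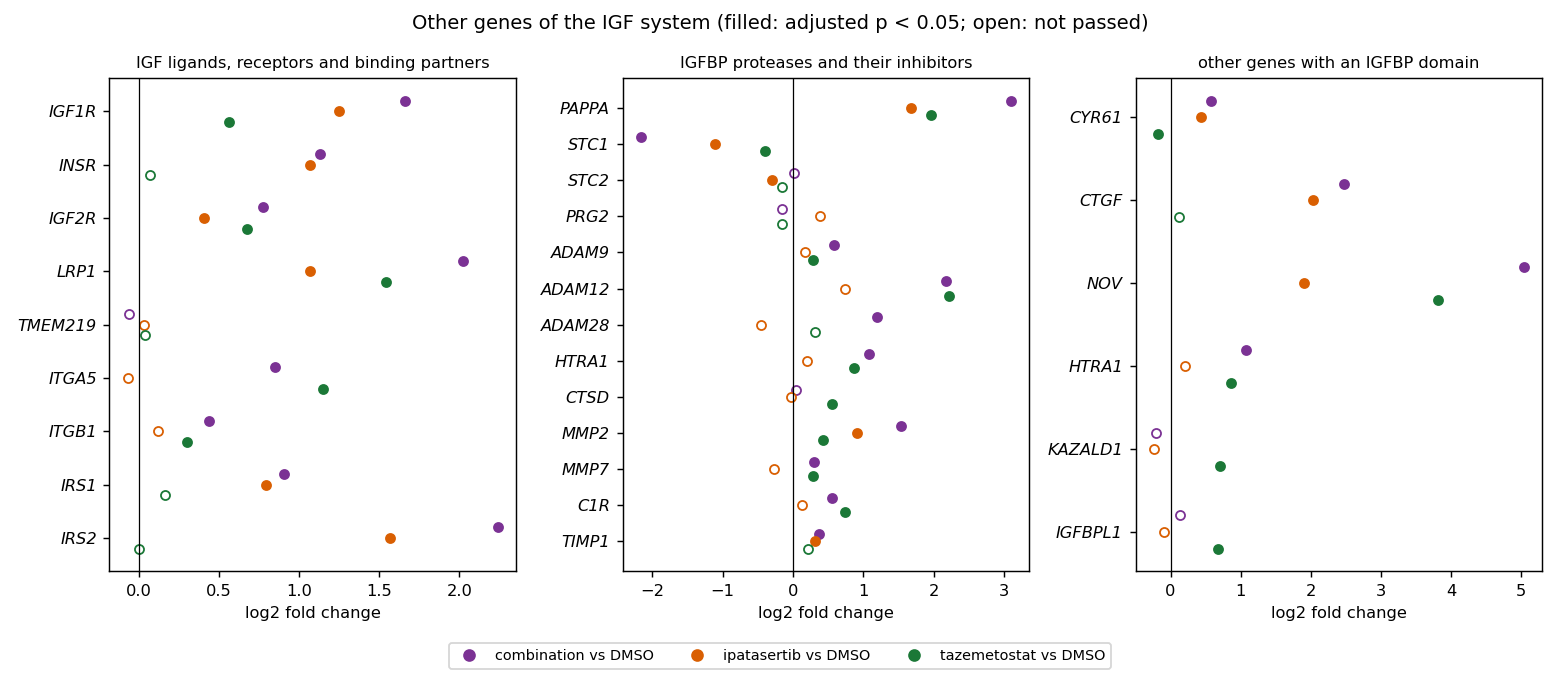
log2 fold changes against DMSO for the tested genes of the 3 IGF-system lists with the combination, ipatasertib and tazemetostat; filled points pass an edgeR adjusted p of 0.05. PAPPA lies at 3.10, 1.68 and 1.96 and STC1 at -2.16, -1.11 and -0.40, and ESM1 and LRP2 are left out because they had at most 1 read over the DMSO libraries.

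The genes whose log2 CPM followed each member most closely over the 12 libraries were taken from 11239 tested genes as a description; the libraries share their treatment groups. For IGFBP2 these were VWA1, UCP2 and NCCRP1 (Pearson r 0.983, 0.98 and 0.98), and for IGFBP3 they were CMTM7, CYR61 and SNHG6 (0.975, 0.973 and 0.971). For IGFBP4 they were ID4, HNRNPA1L2 and RPS13 (0.964, 0.961 and 0.959), and for IGFBP5 they were ALDH1B1, PILRB and SS18 (0.929, 0.911 and 0.909). For IGFBP6 they were SRRM3, TUBB2B and GPR37 (0.99, 0.983 and 0.982), and for IGFBP7 they were MORN4, RASA2 and PPIL6 (0.949, 0.915 and 0.913). The IGFBP7 values rest on only 2 to 23 counts per library.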

How the data were processed

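Libraries of poly(A) RNA from MDA-MB-468 cells were used, 3 in each of 4 groups set by the labels. For each library the authors deposited unnormalized read counts by gene symbol. Per the submitters' processing notes, the tools were STAR, SAMtools, HTSeq and DESeq2, with genome build hg19 and no version stated; annotation and strand setting were not given in the sources used here. A further deposited table of decimal values was not used here. Lines at the end of each table that carry no gene name stayed out of library sizes, and genes held 60.46% to 67.96% of the counted total.

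A single model of group means over all 12 libraries, leaving 8 residual degrees of freedom, was fitted in edgeR 4.0.16 under R 4.3.3, after filterByExpr with a minimum count of 10 and TMM scaling. Robust quasi-likelihood tests were adjusted by Benjamini-Hochberg over 14571 genes at 0.05, and CPM uses TMM-scaled totals. The procedure was tested on simulated data. Members and lists were chosen with earlier results of these data known. All 7 members are described in every comparison. Other named genes come from 3 IGF-system lists (passing genes, up to 4 a list and comparison by size of change, plus IGF ligands, receptors, PAPPA, STC1 and STC2; part of them are printed) or are the 3 genes of highest Pearson r with a member (log2 CPM, prior count 2, at least 5 CPM in a group). Individual marker genes and PRG2 were looked up besides.

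Pairing of same-letter libraries was checked over 9817 genes of at least 10 CPM. Correlations of deviations from group means exceeded 0.1 in 3 of 3 pairs (0.15 to 0.46) for ipatasertib and DMSO, and in all pairs of no other comparison. They were -0.66 to -0.39 for combination and tazemetostat, -0.42 to 0.4 for combination and ipatasertib, -0.27 to -0.05 for combination and DMSO and -0.06 to 0.093 for tazemetostat and DMSO. Over all 14571 tested genes, 1 of 3 pairs exceeded 0.1 for ipatasertib and DMSO (0.03 to 0.14). Alternatives tried were library totals or RLE factors for scaling, DESeq2 1.42.0, keeping all genes with a read, requiring 50 counts in 3 libraries, a fit of the compared groups alone, the letter as a block, and leaving out each library. Leaving out library A of every group was chosen after seeing the data.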

Additional observations from a re-analysis of the deposited data

Results flagged for a closer look

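The effect of ipatasertib on IGFBP4 differed with and without tazemetostat, tested by the interaction term (0.47 on the log2 scale, edgeR adjusted p = 0.00431): it was 0.52 in combination against tazemetostat libraries and 0.05 in ipatasertib against DMSO libraries. The interaction was 0.41 to 0.51 when any 1 library was left out, and 0.35 without library A of every group.

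The effect of ipatasertib on IGFBP5 also differed (interaction 0.67, edgeR adjusted p = 0.000627): it was 0.31 in combination against tazemetostat libraries and -0.36 in ipatasertib against DMSO libraries. The interaction was 0.60 to 0.73 when any 1 library was left out, and 0.59 without library A of every group.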

How the results depend on the processing

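Of 36 member results, 22 were called, and all 435 values of these under the alternatives kept direction and call. The tally includes the IGFBP7 calls, which support no count. It also includes fits that left out a library of neither compared group, so it is given as a description only. With library totals, IGFBP2 was called for tazemetostat against DMSO (0.24) and in the interaction (-0.41), and the IGFBP7 difference between combination and ipatasertib was 0.00 instead of -0.02; the cause was not tested. With the replicate letter as a block, 1012 genes passed in the interaction, against 1744; the block changed no member call, and the IGFBP4 and IGFBP5 interactions had adjusted p-values of 0.0166 and 0.00271.

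Without library A of every group, 5452 genes passed in the interaction, IGFBP3 was called for tazemetostat against DMSO (-0.15), and IGFBP2 was called for combination against ipatasertib (-0.28) and in the interaction (-0.42). In that fit IGFBP7 was 0.52 for tazemetostat against DMSO, 0.02 for combination against ipatasertib and -0.50 in the interaction, and the IGFBP6 interaction was -0.03; the cause was not tested.

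Leaving out 1 library gave 674 to 3681 genes in the interaction, with 9 of 12 libraries moving the count over 1.5 times. Ranges were -0.90 to 0.24 for IGFBP7 in tazemetostat against DMSO, -0.29 to -0.15 for IGFBP2, -0.01 to 0.07 for IGFBP3 and -0.08 to 0.05 for IGFBP7 in combination against ipatasertib, and -0.43 to -0.29 for IGFBP2 and -0.25 to 0.87 for IGFBP7 in the interaction. IGFBP2 was called in the interaction without ipatasertib library A or tazemetostat library A. IGFBP7 was not tested under the filter of 50 counts. Of 1491 values of other named genes, 52 lost the call. Counts of genes called in the other 5 comparisons stayed within 1.5 times. Depth limits IGFBP1 and IGFBP7.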
